A study of Mus musculus with 41 samples.

Results

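Gfap, Vim, Nes and Synm are the 4 intermediate filament genes that mark reactive astrocytes, and they were taken by symbol from the 24946 genes kept of the deposited expression table. All 4 were found, and all 4 passed the filter on low values in every region. RNA was sequenced from whole dissected cortex, midbrain and cerebellum of male and female C57BL/6J mice kept to 12 weeks. Conditional knockout (cKO) mice carry Yy1-floxed alleles and Cre recombinase from the GFAP-cre line, so that Yy1 is excised in astrocytes, and the mice they are set against, called floxed here, carry the Yy1-floxed alleles only. The cKO groups had 5 cortex, 7 midbrain and 7 cerebellum libraries, and the floxed groups had 6 cortex, 7 midbrain and 7 cerebellum libraries, 1 library per animal and region. Replicate numbers come from the sample titles, and libraries of 1 genotype with the same number were taken as the same animal. No group carries Cre alone, so effects of Cre and of the loss of Yy1 cannot be told apart. The driver of Cre is named for Gfap, the first of the genes described here, and the labels do not say which GFAP-cre line was used.

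Intermediate filaments are rope-like polymers that give a cell its mechanical strength. In astrocytes glial fibrillary acidic protein, encoded by Gfap, and vimentin, encoded by Vim, form the backbone of the filament. Nestin (Nes) and synemin (Synm) are large proteins that do not polymerise well alone and join filaments built by the others. After brain injury, infection or disease astrocytes become reactive: they thicken their processes and make more of these proteins, and Gfap is the standard label of that state. Vimentin is also made by endothelial cells, fibroblasts, microglia, ependymal cells and the Bergmann glia of the cerebellum, and nestin by neural stem cells and growing vessels. In whole tissue, fewer cells of a type and less RNA per cell cannot be told apart.

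On GRCm38, with the GENCODE vM21 annotation, Gfap (ENSMUSG00000020932.14) lies on chromosome 11 from 102887336 to 102900912 on the minus strand. Its merged exons cover 4.22 kb. Vim (ENSMUSG00000026728.9) lies on chromosome 2 from 13573927 to 13582826 on the plus strand, with 4.74 kb of exons. Nes (ENSMUSG00000004891.16) lies on chromosome 3 from 87971078 to 87980451 on the plus strand, with 6.42 kb of exons. Synm (ENSMUSG00000030554.16) lies on chromosome 7 from 67730160 to 67759742 on the minus strand, with 7.93 kb of exons. Exons of Ttc23 and Gm45102 overlap those of Synm on the opposite strand, and the library kit does not mark strand, so the values of Synm may include reads of these genes and are uncertain.

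The promoters of the 4 genes are shown because Yy1 encodes a zinc finger factor that binds DNA at a short core, GCCAT, and because Gfap is a known target of STAT3, which binds the spaced motif TTCNNNGAA. Each stretch holds 250 bases before and 50 after the RefSeq start site on GRCm38.p6, read 5′ to 3′ on the strand of the gene. Capitals mark the YY1 core on either strand (GCCAT or ATGGC) and the STAT motif.
Gfap: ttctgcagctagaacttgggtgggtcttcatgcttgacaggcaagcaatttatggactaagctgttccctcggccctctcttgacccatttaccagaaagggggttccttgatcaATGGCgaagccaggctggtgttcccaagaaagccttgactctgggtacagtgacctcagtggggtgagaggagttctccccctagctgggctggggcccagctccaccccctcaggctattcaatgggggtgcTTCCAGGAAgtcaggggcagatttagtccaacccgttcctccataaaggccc
Vim: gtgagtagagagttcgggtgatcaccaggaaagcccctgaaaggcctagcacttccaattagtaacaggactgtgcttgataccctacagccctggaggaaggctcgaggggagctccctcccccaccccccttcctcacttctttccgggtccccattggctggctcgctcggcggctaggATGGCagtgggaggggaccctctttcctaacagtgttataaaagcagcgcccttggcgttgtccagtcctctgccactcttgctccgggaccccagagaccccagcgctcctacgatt
Nes: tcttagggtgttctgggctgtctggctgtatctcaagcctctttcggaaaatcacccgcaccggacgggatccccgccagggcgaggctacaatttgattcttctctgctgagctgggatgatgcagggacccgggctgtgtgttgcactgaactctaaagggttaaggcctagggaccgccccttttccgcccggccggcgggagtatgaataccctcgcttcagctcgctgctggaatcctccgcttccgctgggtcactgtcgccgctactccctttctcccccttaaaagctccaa
Synm: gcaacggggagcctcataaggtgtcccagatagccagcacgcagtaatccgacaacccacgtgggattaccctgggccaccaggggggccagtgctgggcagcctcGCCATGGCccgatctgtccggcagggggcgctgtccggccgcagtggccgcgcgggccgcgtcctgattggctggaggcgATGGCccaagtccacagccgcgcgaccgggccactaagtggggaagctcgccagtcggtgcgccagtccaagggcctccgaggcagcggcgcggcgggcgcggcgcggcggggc
These are chr11:102897151-102897450 on the minus strand for Gfap, chr2:13574061-13574360 on the plus strand for Vim, chr3:87970843-87971142 on the plus strand for Nes and chr7:67759693-67759992 on the minus strand for Synm. The whole Gfap and Vim windows lie inside the GENCODE spans of these genes, which begin further upstream than the RefSeq start sites. The RefSeq start site of Nes also lies just inside its GENCODE span.

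The YY1 core was present in the promoters of Gfap (1 match), Vim (1 match) and Synm (3 matches, of which a pair overlaps in the palindrome GCCATGGC), and the letters are not in the window of Nes. The core is short, and 40.5% of the 32851 RefSeq promoters of this length hold it on either strand. A longer form, GCCATNTT, is in 6.05% of all promoters and in none of the 4 windows. The STAT motif was found in the Gfap window, where it spans the start site, and in none of the other windows, and 8.30% of all promoters hold it. A TATA box, TATAAA on the strand of the gene, was found in the Vim window 32 bases before the start site and is in 8.32% of all promoters. A match is a description of letters and shows no binding.

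Values are normalised read counts. Library totals ran from 21.5 to 28.7 M normalised reads, while the reads behind them, estimated from the spacing of low values, ran from 6.81 to 69.5 M. The median estimated depth was 16.3 M reads in cKO and 28.8 M in floxed cerebellum, and the cortex and midbrain medians lay between 22.7 and 29.2 M. Yy1 was lower in cKO tissue in each region, with log2 folds of -0.26 ± 0.07 in cortex (SE, adjusted p = 0.0166, limma), -0.24 ± 0.06 in midbrain (adjusted p = 0.0180, limma) and -0.86 ± 0.15 in cerebellum (adjusted p = 0.00114, limma). Of 18 libraries labelled female 9 had Xist above 1000 normalised reads, and the other 9 did not. Every library with Xist under 1000, these 9 among them, had 543.2 normalised reads or more of the Y chromosome gene Ddx3y. Libraries with Xist above 1000 had 0.0 to 7.4. The female label of those 9 thus goes against both genes. Of them, 8 entered the main fits, where labelled sex was the covariate. The cerebellum library labelled floxed 6 went against its label, with 585.4 normalised reads of Yy1, inside the cKO range of 498.8 to 682.6, whereas the other floxed cerebellum libraries had 881.2 to 1348. Of the 6383 genes called in cerebellum when that library was left out, 68.5% had a value in it that was nearer the cKO mean than the floxed mean. For the other floxed cerebellum libraries, each left out in the same way, that share was 2.47 to 15.9%. Cerebellum results are therefore given with and without it. Animal 6 also stood apart in the other regions, with shares of 55.3% for floxed midbrain 6, where the other floxed midbrain libraries had 11.1 to 17.1%, and 46.3% for floxed cortex 6. Floxed cortex 5 had 50.5%, and the other floxed cortex libraries had 2.62 to 9.71%. Some cKO libraries were also less clear, with shares of 51.3% for cKO cortex 2 and 53.2% for cKO cortex 3. For cKO cerebellum 6 it was 57.8% and for cKO midbrain 6 66.3%, while the other cKO libraries had 72 to 93.1%. Yy1 was 983.2 in floxed midbrain 6, inside the cKO range of 891.9 to 1069 as 2 other floxed midbrain libraries were, and 1134 and 1157 in floxed cortex 5 and 6, inside the cKO range of 953.6 to 1189. Without floxed midbrain 6 the midbrain log2 folds were 1.31 for Gfap, 0.90 for Vim, 0.27 for Nes and -0.31 for Synm (limma adjusted p = 0.000117, 0.0199, 0.119 and 0.00794). Without floxed cortex 6 the cortex log2 folds were 2.65 for Gfap, 1.60 for Vim, 0.54 for Nes and -0.28 for Synm (limma adjusted p = 0.000160, 0.00799, 0.0100 and 0.0107), and without floxed cortex 5 they were 2.29, 1.68, 0.51 and -0.27 (limma adjusted p = 0.0125, 0.00436, 0.0124 and 0.0175).

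Among the 4 genes Gfap had the highest level per kilobase of exon in floxed cortex and midbrain. In floxed midbrain the mean levels per kilobase were 2385 ± 144 for Gfap, 237 ± 40.9 for Vim, 213 ± 26.8 for Synm and 62.1 ± 11.5 for Nes (SD, n = 7). Floxed cortex had the same order, with 1067 ± 299 for Gfap, 207 ± 49.5 for Vim, 172 ± 12.3 for Synm and 68.5 ± 14.9 for Nes per kilobase (SD, n = 6). Vim and Synm, neighbours in that order, differed by less than the SD of Vim in both regions. In the 6 floxed cerebellum libraries other than number 6, Vim (1201 ± 150 per kilobase) and Gfap (1074 ± 54.1) stood close together, above Synm (77.4 ± 4.50) and Nes (56.3 ± 11). There Vim and Gfap differed by less than the SD of Vim.

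Between floxed cerebellum and the other floxed regions Vim and Synm differed most of the 4 genes. Vim was higher in floxed cerebellum than in floxed cortex with a log2 fold of 2.64 and an SE of 0.27 (limma adjusted p = 5.50e-11) and than in floxed midbrain with 2.35 ± 0.26 (adjusted p = 3.63e-10, limma). Synm was lower in floxed cerebellum, by a log2 fold of -1.22 against floxed cortex (limma adjusted p = 2.54e-10) and of -1.53 against floxed midbrain (adjusted p = 2.85e-13, limma). Region contrasts called 62.5% of all genes tested between floxed cerebellum and cortex, 62.4% between floxed cerebellum and midbrain and 25.5% between floxed midbrain and cortex. The median log2 fold of all genes was -0.14 for floxed cerebellum against cortex and 0.14 when libraries were scaled to the same total, so region differences of that size depend on the scaling. Gfap was higher in floxed midbrain than in floxed cortex, with a log2 fold of 1.25 and an SE of 0.37 (limma adjusted p = 0.0104). Between floxed cerebellum and midbrain the Gfap difference was -0.79 (adjusted p = 0.0514, limma), -0.79 with the animal as a random block (adjusted p = 0.0232) and -1.21 without library 6 (adjusted p = 0.000230). Leaving out floxed cortex 6, cKO cortex 2, 3 or 6, or cKO cerebellum 3 or 6 also brought that difference past the threshold, and adjusted p ran from 9.08e-06 to 0.141 over its 52 alternatives. Synm in floxed midbrain against cortex differed by 0.31 (adjusted p = 0.0800, limma) and by 0.30 with the animal as a block (adjusted p = 0.0463). Its adjusted p ran from 0.000620 to 0.188 over 52 alternatives and was 0.0330 without cKO cerebellum 4. Nes differed little between floxed regions, with log2 folds of -0.12, 0.00 and -0.12 for cerebellum against cortex, cerebellum against midbrain and midbrain against cortex (limma adjusted p of 0.554, 0.984 and 0.651), and scaling to the same total turned the sign of the first.

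In cKO cortex the 4 genes split. Gfap, Vim and Nes rose and Synm fell, so that all 4 were called, in a comparison where 23.5% of the 15731 genes tested were called.

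Gfap had 40759.6, 39938, 28035, 12633 and 6215 normalised reads in cKO cortex 2 to 6, against 4947, 4812, 3642, 4616, 2631 and 6348 in floxed cortex 1 to 6. The first 4 cKO libraries lay above every floxed library, and cKO 6 lay just under floxed 6. Gfap rose 4.94-fold, a log2 fold of 2.30 with an SE of 0.40 (95% interval 1.41 to 3.20, limma adjusted p = 0.00519).

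Vim was also highest in cKO cortex 2 and 3 and lowest in cKO cortex 6. It had 5555, 5949, 3019, 1337 and 825.9 normalised reads in cKO cortex 2 to 6 and 1027, 1152, 1117, 1208, 765.9 and 622.7 in floxed cortex 1 to 6. Again 4 of 5 cKO libraries lay above every floxed library and cKO 6 lay among them. The log2 fold of Vim was 1.51 ± 0.28 (SE, 95% interval 0.89 to 2.14, limma adjusted p = 0.00601). With log2 Xist replacing labelled sex as the covariate, the cortex values were 3.0 for Gfap (adjusted p = 3.70e-05, limma) and 2.25 for Vim (adjusted p = 8.32e-05, limma). Without a sex covariate Vim was at 1.42 with an adjusted p of 0.0711 (limma). Over 27 alternatives adjusted p ran from 1.88e-06 to 0.0692 for Gfap and from 8.32e-05 to 0.0711 for Vim.

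Nes, the nestin gene, rose less and more evenly. Its values were 728.4, 606.7, 590.3, 654.7 and 570.6 in cKO cortex 2 to 6 and 528.1, 404.7, 509.1, 530.4, 320.3 and 344.1 in floxed cortex 1 to 6. All 5 cKO libraries lay above all 6 floxed libraries, a separation upwards that 3.83% of the genes tested showed. The log2 fold of Nes was 0.56 ± 0.11 (SE, 95% interval 0.32 to 0.81, limma adjusted p = 0.00542). Without the animals numbered 5, 6 and 7 it was 0.38 (adjusted p = 0.0577, range 0.00332 to 0.0577 over 27 alternatives, limma).

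Synm went the other way. Synemin transcripts were at 1075, 1084, 1171, 1172 and 1160.4 normalised reads in cKO cortex 2 to 6 and at 1368, 1546, 1365, 1317, 1302 and 1272 in floxed cortex 1 to 6. Every cKO library lay below every floxed library, which 3.01% of the genes tested showed in that direction. The fall was small, a log2 fold of -0.26 with an SE of 0.06 (95% interval -0.40 to -0.13, limma adjusted p = 0.0120), and it did not pass in a fit of all 6 groups together (-0.26, adjusted p = 0.220, range 0.00111 to 0.220 over 27 alternatives, limma).

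**Figure D1:**
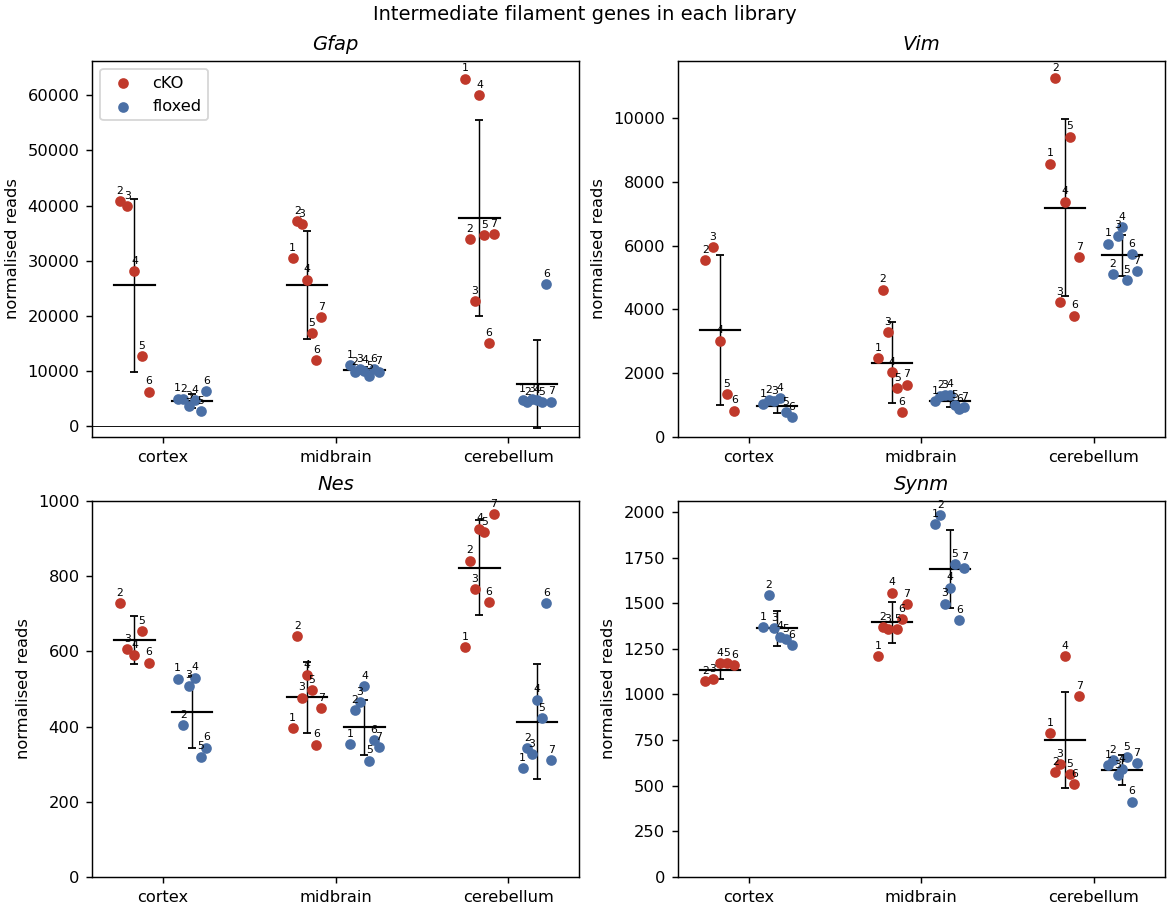
Normalised reads (linear axes) of Gfap, Vim, Nes and Synm in each of 39 libraries by region, cKO in red and floxed in blue, numbered by animal, with lines at the group mean and bars of 1 SD. Gfap of cKO libraries spreads widely and lies above the floxed mean in every library, Vim of cKO cerebellum (3801 to 11257) lies on both sides of the floxed range, Synm of cKO cortex (1075 to 1172) lies below floxed cortex (1272 to 1546), and floxed cerebellum 6 stands apart in Gfap at 25729.

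In cKO midbrain Gfap and Vim rose, Synm fell and Nes did not pass the test, in a comparison where 16.1% of the 15683 genes tested were called. Gfap had 30402, 37119.6, 36608, 26570.3, 16768, 11965 and 19728 normalised reads in cKO midbrain (range of 7 libraries 11965 to 37119.6) against a lowest, median and highest of 9068, 10041 and 11059 in floxed midbrain. All 7 cKO libraries lay above all 7 floxed libraries, as 1.97% of the genes tested did. The floxed libraries were close together, with an SD of 608 around a mean of 10061, and the log2 fold was 1.25 ± 0.16 (SE, 95% interval 0.89 to 1.60, limma adjusted p = 0.000356), a 2.37-fold rise.

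Vim in midbrain had a lowest, median and highest of 772.7, 2023 and 4618 normalised reads in cKO and of 863.6, 1129 and 1328 in floxed libraries. Of 7 cKO libraries, 6 lay above every floxed library, and cKO 6 lay below every floxed library. The log2 fold of Vim was 0.88 ± 0.22 (SE, 95% interval 0.41 to 1.35, limma adjusted p = 0.0163). It did not pass without a sex covariate (0.88, adjusted p = 0.0793, limma) or with depth as an added covariate (0.87, adjusted p = 0.107, limma), and adjusted p ran from 0.000596 to 0.107 over 30 alternatives.

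Nes in midbrain had 352.0, 477.1 and 640.4 normalised reads as the lowest, median and highest cKO libraries, and 309.6, 363.9 and 508.7 in floxed libraries. The groups overlapped, and 2 cKO libraries lay above every floxed library. Its log2 fold was 0.26 ± 0.11 (SE, 95% interval 0.03 to 0.49, limma adjusted p = 0.116), and 0.33 without cKO midbrain 1 (adjusted p = 0.0468, range 0.0468 to 0.510 over 30 alternatives, limma). Synm had 1212, 1371 and 1558 in cKO and 1408, 1695 and 1981 in floxed midbrain as lowest, median and highest. All 7 cKO libraries lay below the floxed mean, and 4 of them lay below every floxed library. Its log2 fold of -0.27 ± 0.08 (SE, 95% interval -0.43 to -0.11, limma adjusted p = 0.0249) was -0.23 without floxed midbrain 1, floxed midbrain 2 or cKO midbrain 1 (adjusted p = 0.0533, 0.0529 and 0.0564, limma). Adjusted p of Synm ran from 0.00794 to 0.235 over 30 alternatives.

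In cKO cerebellum Gfap and Nes rose, and Vim and Synm did not pass the test, in a comparison where 39% of the 15334 genes tested were called. Gfap had 63053, 33937, 22621, 60063, 34675, 15071 and 34752 normalised reads in cKO cerebellum 1 to 7. Floxed cerebellum had 4781, 4362, 4786, 4605, 4241, 25729 and 4409, where the high value is the library whose Yy1 goes against its label. All 7 cKO libraries lay above the other 6 floxed libraries, and 5 of 7 lay above library 6 as well. Of the genes tested in cerebellum, 10.9% had all 7 cKO libraries above those 6 floxed libraries. The log2 fold was 2.55 ± 0.42 (SE, 95% interval 1.66 to 3.44, limma adjusted p = 0.000884), and 2.95 ± 0.26 without that library (adjusted p = 2.26e-06, limma, a 7.72-fold rise).

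Nes in cerebellum had 611.1, 842.1, 765.8, 927.2, 918.7, 732.2 and 964.8 normalised reads in cKO libraries and 290.4, 343.0, 327.2, 471.9, 422.1, 729.2 and 311.7 in floxed libraries. Library 6, at 729.2, was again the high floxed value, and the other 6 lay below every cKO library, the same separation that 10.9% of the genes tested showed. The log2 fold of Nes was 1.04 ± 0.17 (SE, 95% interval 0.67 to 1.42, limma adjusted p = 0.000949), and 1.18 ± 0.14 without library 6 (adjusted p = 2.25e-05, limma). With log2 estimated reads as an added covariate Nes was at 1.15.

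Vim in cerebellum had 8572, 11257, 4219, 7383, 9419.9, 3801 and 5640.0 normalised reads in cKO libraries, around a floxed range of 4919.7 to 6587 with a median of 5724. The cKO libraries lay on both sides of it, 4 above every floxed library and 2 below every one. Its log2 fold was 0.24 ± 0.21 (SE, 95% interval -0.20 to 0.69, limma adjusted p = 0.365), and 0.27 without library 6 (adjusted p = 0.340, limma). Synm had 787.9, 572.9, 617.5, 1209, 565.0, 506.8 and 989.2 in cKO cerebellum against a floxed range of 412.6 to 658.3, where library 6 was the lowest and the other 6 held 559.7 to 658.3. The cKO libraries 1, 4 and 7 lay above every floxed library. Its log2 fold was 0.30 ± 0.18 (SE, 95% interval -0.09 to 0.69, limma adjusted p = 0.196), and 0.23 without library 6 (adjusted p = 0.332, limma).

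**Figure D2:**
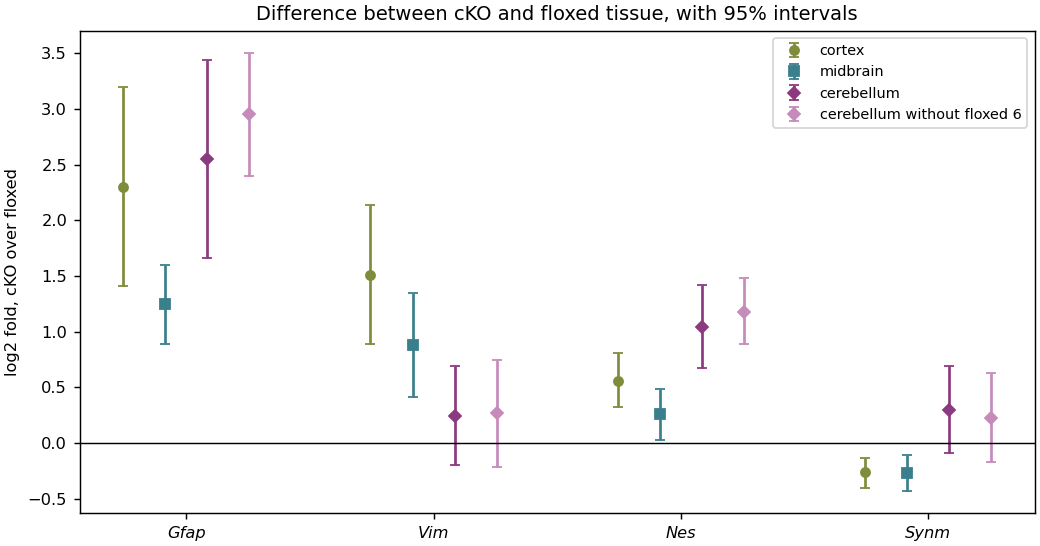
Log2 fold of cKO over floxed tissue for the 4 genes in cortex, midbrain and cerebellum, and in cerebellum without floxed library 6; points are limma estimates and bars are 95% intervals. The Gfap intervals lie above 0 in all 3 regions, the Vim interval spans 0 in cerebellum (-0.20 to 0.69), and Synm lies below 0 in cortex and midbrain only.

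Some of these effects differed between regions when the difference itself was tested in a fit of all 6 groups. The Vim effect was lower in cerebellum than in cortex, with a difference of -1.23 ± 0.39 on the log2 scale (SE, adjusted p = 0.0284, limma), in a contrast that called 14.5% of genes. It was -1.02 without cKO cortex 2 (adjusted p = 0.0728, limma) and -1.0 without cKO cortex 3 (adjusted p = 0.0780, limma), within a range of 0.00325 to 0.116 over 52 alternatives. The Synm effect was 0.56 ± 0.19 higher on the log2 scale in cerebellum than in cortex (SE, adjusted p = 0.0423, limma), but 16 of the 39 single libraries, left out in turn, ended that call, with values of 0.44 to 0.64 and adjusted p of 0.0137 to 0.0743 over all 39. Neither the Nes difference of 0.49 (adjusted p = 0.166, limma) nor that of Gfap of 0.28 (adjusted p = 0.777, limma) passed. Nes passed without floxed cerebellum 6, at 0.65 (adjusted p = 0.0166, range 0.0166 to 0.276 over 52 alternatives, limma). The Gfap difference was -0.09 without cKO cortex 6 (adjusted p = 0.938, range 0.241 to 0.938 over 52 alternatives, limma).

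Between cerebellum and midbrain, where 22.4% of genes were called, Nes and Synm had higher effects in cerebellum, by 0.79 ± 0.22 (SE, limma adjusted p = 0.0102) and 0.57 ± 0.18 (SE, limma adjusted p = 0.0189). For Gfap the difference was 1.31 ± 0.50 (SE, limma adjusted p = 0.0569). With the animal as a random block it was 1.31 (adjusted p = 0.0222, limma), and without floxed cerebellum 6 it was 1.73 (adjusted p = 0.000771, limma). It also passed without cKO cortex 6, cKO cerebellum 3 or cKO cerebellum 6, with adjusted p of 0.0388, 0.0364 and 0.0289 (limma, range 3.68e-05 to 0.104 over 52 alternatives). The Vim difference was -0.64 (adjusted p = 0.202, limma). Between midbrain and cortex no effect of the 4 genes passed (limma adjusted p = 0.998 for each), in a contrast that called 0.00600% of genes. There the differences of the log2 fold were -1.02 for Gfap, -0.59 for Vim, -0.29 for Nes and -0.01 for Synm, and that of Synm turned its sign under TMM scaling. Comparisons with cerebellum share the same cerebellum libraries.

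The balance of Gfap to Vim also differed by region. The Gfap to Vim ratio of levels per kilobase had a median of 8.46 in cKO cortex (range 7.55 to 10.6) and 4.50 in floxed cortex (3.67 to 11.5). In midbrain it was 13.5 in cKO (9.04 to 17.4) and 10.3 in floxed tissue (8.50 to 13.5). In cerebellum the median was 6.03 in cKO (3.39 to 9.15) and 0.955 in floxed tissue (0.786 to 5.05), and the highest floxed ratio was that of library 6.

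**Figure D3:**
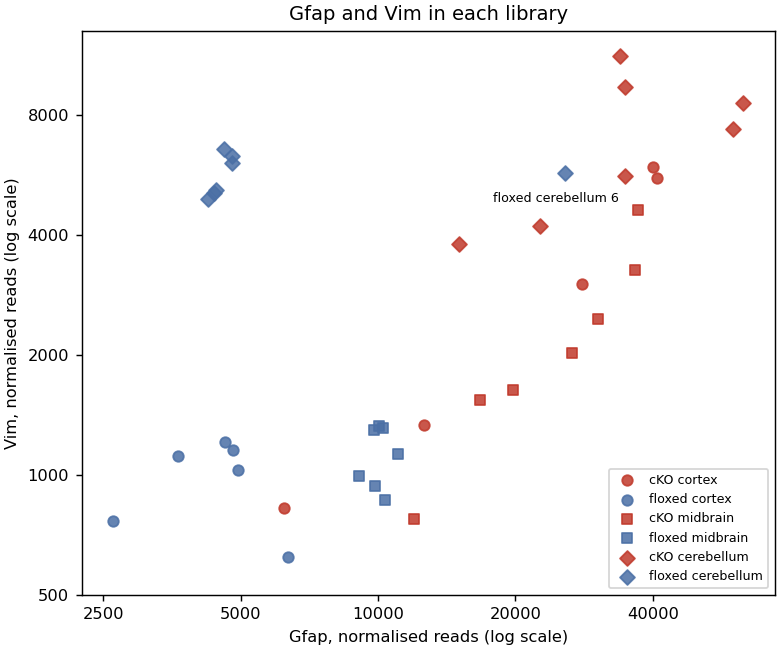
Normalised reads of Gfap (x, log scale) and Vim (y, log scale) in 39 libraries, cKO in red and floxed in blue, with cortex as circles, midbrain as squares and cerebellum as diamonds. Floxed cerebellum libraries other than 6 sit at high Vim (4919.7 to 6587) and low Gfap (4241 to 4786), and cKO libraries of each region run from low to high in both genes.

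Gfap varied strongly among cKO animals. The highest cKO library had 6.56 times the Gfap of the lowest in cortex, 3.10 times in midbrain and 4.18 times in cerebellum. On the log2 scale the SD of Gfap was 1.18 in cKO and 0.44 in floxed cortex, 0.61 in cKO and 0.09 in floxed midbrain, and 0.73 in cKO and 0.95 in floxed cerebellum. Without floxed cerebellum 6 the floxed cerebellum SD was 0.07. Over all genes tested the median ratio of the cKO to the floxed SD was 1.17 in cortex, 1.10 in midbrain and 1.55 in cerebellum. An SD among cKO libraries at least that of Gfap was found in 1.42%, 3.86% and 9.59% of genes tested in cortex, midbrain and cerebellum.

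The mean absolute deviation of Gfap from the group median was larger in cKO than in floxed midbrain by 0.42 on the log2 scale (two-sided exact permutation p = 0.00524, adjusted over 3 regions 0.0157), and by 0.14 without the animals numbered 5, 6 and 7 (exact permutation p = 0.0286). In cortex it was larger by 0.58 (exact permutation p = 0.132, adjusted 0.198). Without cKO cortex 2, 3 or 4 the cortex value was 0.66, 0.67 and 0.80 (exact permutation p = 0.0333, 0.0333 and 0.0190, range 0.0152 to 0.714 over 15 alternatives). It was smaller without cKO cortex 6, at 0.25 (exact permutation p = 0.424), and without the animals numbered 5, 6 and 7, at 0.05 (exact permutation p = 0.714). In cerebellum it was larger by 0.09 (exact permutation p = 0.871, adjusted 0.871), by 0.44 without floxed cerebellum 6 (exact permutation p = 0.0699) and by 0.53 without the animals numbered 5, 6 and 7 (exact permutation p = 0.0286). With the animals numbered 5, 6 and 7 left out, 0.0286 is the smallest exact permutation p possible in midbrain and cerebellum. The wide spread was known before this test, which therefore describes these libraries.

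Vim shared that spread, with an SD of log2 values of 1.26 in cKO and 0.38 in floxed cortex, 0.83 in cKO and 0.26 in floxed midbrain, and 0.59 in cKO and 0.16 in floxed cerebellum. Nes did not, with 0.14 in cKO and 0.32 in floxed cortex, 0.28 in cKO and 0.26 in floxed midbrain, and 0.23 in cKO and 0.46 in floxed cerebellum (0.27 without floxed cerebellum 6). Synm was wider in cKO only in cerebellum, with 0.47 in cKO and 0.23 in floxed libraries, and 0.08 in floxed libraries without number 6. It had 0.12 in cKO and 0.18 in floxed midbrain, and 0.06 in cKO and 0.10 in floxed cortex, where 95.3% of the genes tested had a cKO SD at least as large as that of Synm.

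Animals cKO 5 and 6, the 2 cKO animals with Xist above 1000 in every region, had the lowest Gfap of the cKO libraries in cortex (12633 and 6215) and in midbrain (16768 and 11965). In cerebellum cKO 6 was the lowest at 15071, while cKO 5 had 34675, near the middle. Among floxed libraries in the comparisons, animal 7 alone had Xist above 1000, with 9866 in midbrain and 4409 in cerebellum, inside the range of the other floxed libraries apart from cerebellum 6. No floxed cortex library in the comparison had Xist above 1000, so in cortex the fold among animals that carry Xist has no value. The part of sex in the spread of Gfap was not tested.

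Across the 7 cKO animals, Gfap in midbrain and in cerebellum had a Pearson r of 0.45 (exact permutation p = 0.309, adjusted over both genotypes 0.309) and a Spearman rho of 0.14 (exact permutation p = 0.783). Without animals 5 and 6, the farthest from the midbrain median, r was -0.30 (exact permutation p = 0.608), and without animal 6 alone it was -0.11. No relation passed the test in cKO animals, and the sign of r turned without animal 6. Animals cKO 1 and 4 had the highest cerebellum Gfap, and cKO 2 and 3 the highest in cortex and midbrain. Across the 7 floxed animals r was 0.29 (exact permutation p = 0.286, adjusted 0.309) and rho was 0.89 (exact permutation p = 0.0123, adjusted 0.0246), and without floxed animal 6 r was 0.88 (exact permutation p = 0.00417). Without floxed animals 1 and 5, the farthest from the median, r was 0.74 (exact permutation p = 0.00833, the smallest that the 5 animals left allow). Those 5 still include floxed animal 6, with 25729 in cerebellum, so that r depends on the library that goes against its label.

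**Figure D4:**
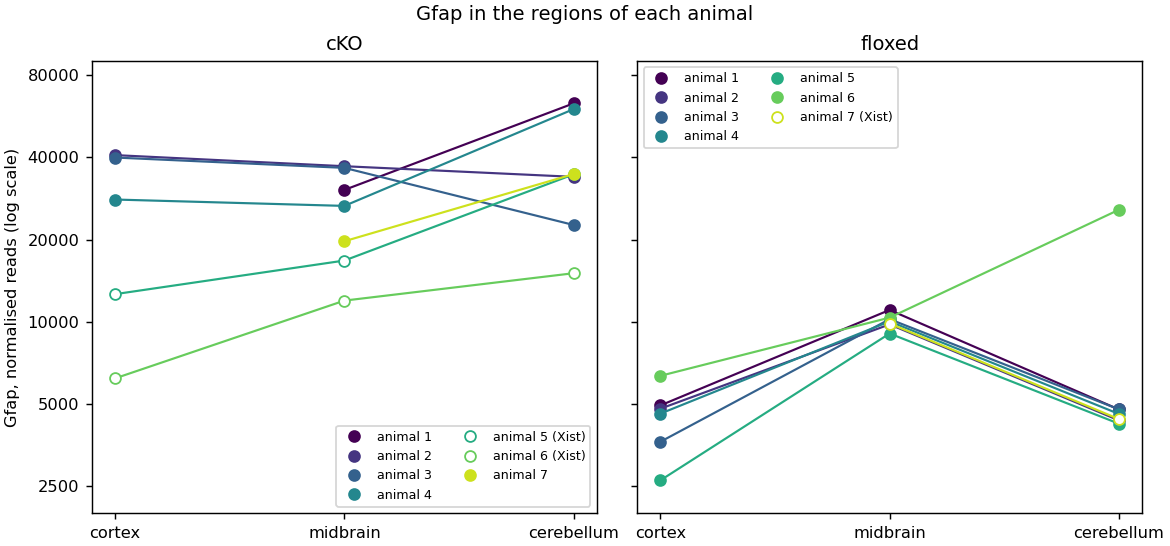
Normalised reads of Gfap (log scale) in the regions of each animal, cKO on the left and floxed on the right, with 1 line per animal and open points for animals with Xist above 1000. The cKO lines cross between midbrain and cerebellum, and the floxed lines run together from 9068 to 11059 in midbrain, apart from animal 6 at 25729 in cerebellum.

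Over the 19 cKO libraries, with each region centred on its own mean, Gfap and Vim moved together (Pearson r = 0.90). The other pairs had r of 0.45 for Vim and Nes, 0.31 for Gfap and Nes, 0.29 for Gfap and Synm, 0.22 for Nes and Synm and -0.05 for Vim and Synm. Gfap had r of 0.29 with Yy1 and 0.14 with log2 estimated reads, and Nes had -0.50 with log2 estimated reads. These values are descriptions over libraries that share animals and depth.

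Among 12088 genes ranked by the same measure, the genes most like Gfap included Ctss (r = 0.95), C4b (0.94), Cnn3 (0.94), Olfml3 (0.94) and Gal3st4 (0.94). Ctss encodes the lysosomal protease cathepsin S, typical of microglia, and C4b encodes a complement component. C4b averaged 3599 ± 1985 normalised reads in cKO and 925 ± 192 in floxed cortex, 2650 ± 851 in cKO and 1163 ± 208 in floxed midbrain, and 6009 ± 3511 in cKO and 782 ± 940 in floxed cerebellum (SD). It rose in each region, by log2 folds of 1.82, 1.14 and 3.24 in cortex, midbrain and cerebellum (limma adjusted p = 0.00299, 8.48e-05 and 0.000598). Ctss rose by 0.71, 0.38 and 2.09 (limma adjusted p = 0.0253, 0.0396 and 0.000834). Cnn3, which encodes the actin-binding protein calponin, rose in cortex (0.43, limma adjusted p = 0.00626) and cerebellum (0.42, adjusted p = 0.00480) and had 0.02 in midbrain (adjusted p = 0.861).

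Nearest to Vim were Flnc, the actin crosslinker filamin C (r = 0.94), H2-D1, a class I histocompatibility gene (0.93), and Parp3, an ADP-ribosyltransferase (0.93). H2-D1 rose by log2 folds of 1.61, 0.90 and 0.64 in cortex, midbrain and cerebellum (limma adjusted p = 0.00136, 0.000236 and 0.00365). For Nes the nearest genes were less close, Ecm1 with r of 0.74, Lgals9 with 0.72 and Slc39a8 with 0.71. Ecm1, which encodes an extracellular matrix protein, rose by 0.87, 0.64 and 1.29 (limma adjusted p = 0.000331, 0.00279 and 0.00102), and Slc39a8, a metal ion transporter, was not called in any region. For Synm they were Tinagl1 (0.95), Clec2d (0.94) and Ehbp1l1 (0.94), none of which was called in any region (limma adjusted p of 0.0624 to 0.718).

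Other intermediate filament genes did not follow Gfap in cortex and midbrain. Of 12 tested in cortex none was called higher and 2 were lower, with a median log2 fold of -0.13 beside -0.01 for all genes tested. In midbrain 0 of 14 were higher and 6 lower, with a median of -0.23 beside -0.01. In cerebellum 6 of 13 were higher and 2 lower, with a median of 0.38 beside -0.01. Of all genes tested, 10.5% were called higher and 12.9% lower in cortex, 8.48% and 7.61% in midbrain and 19.4% and 19.6% in cerebellum.

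Of the neurofilament genes Nefl, Nefm, Nefh and Ina, which encode the filaments of axons, those called were lower in cKO tissue, except Nefm in cerebellum, which was higher. Nefl averaged 9624 ± 431 normalised reads in cKO and 12831 ± 752 in floxed cortex (SD, n = 5 and 6) and fell by 0.41 on the log2 scale (limma adjusted p = 0.00106). Nefm fell by 0.34 in cortex (limma adjusted p = 0.0488), with 6053 ± 513 in cKO and 7717 ± 1369 in floxed libraries, and rose by 0.55 in cerebellum (limma adjusted p = 0.00144), with 7283 ± 1004 in cKO and 4952 ± 569 in floxed libraries. In midbrain Nefl fell by 0.32 (limma adjusted p = 0.0165), Nefm by 0.30 (adjusted p = 0.0191, limma) and Ina, the gene of alpha-internexin, by 0.23 (limma adjusted p = 0.00408), and Nefh had -0.35 (adjusted p = 0.0506, limma). In cerebellum Ina fell by 0.40 (limma adjusted p = 0.0248) and Nefh by 0.34 (adjusted p = 0.0181, limma). The epithelial keratin gene Krt18 fell by 0.76 in midbrain (limma adjusted p = 0.00490). Its partner Krt8 fell by 1.15 (limma adjusted p = 0.00642), at low levels of 16.6 ± 6.92 in cKO and 37.0 ± 12.1 in floxed midbrain (SD, n = 7 each). Of the 6 choroid plexus markers, genes of an epithelium in the ventricles, 5 were also lower in cKO midbrain. There 7.61% of all genes tested were called lower. The markers summed to 8171 to 20891 in cKO and 15206 to 35093 in floxed libraries. The part of choroid plexus in the keratin values was not tested. In cerebellum Des, the muscle filament gene desmin, rose by 0.66 (limma adjusted p = 0.00155) and Bfsp2, a lens filament gene, by 0.73 (limma adjusted p = 0.0103). In cortex Lmna, which encodes the nuclear lamins A and C, had 0.24 (limma adjusted p = 0.158).

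Genes for proteins that link filaments or modify them changed in a mixed way. In cortex 1 of 15 was higher and 7 were lower (median log2 fold -0.28). In midbrain 1 was higher and 2 lower (median -0.12), and in cerebellum 4 were higher and 2 lower (median 0.21). The median was -0.01 for all genes tested in each region. Calls higher and lower made up 10.5% and 12.9% of all genes in cortex and 8.48% and 7.61% in midbrain. In cerebellum they made up 19.4% and 19.6%. Whether this list was called more often than other genes was not tested. Padi2, an enzyme that converts arginines of proteins such as GFAP and myelin basic protein to citrulline, fell by 0.88 in cortex (limma adjusted p = 0.00841), fell by 1.00 in midbrain (limma adjusted p = 0.00179) and rose by 0.57 in cerebellum (limma adjusted p = 0.00585). Its levels were 746 ± 105 in cKO and 1550 ± 430 in floxed midbrain, and 1037 ± 267 in cKO and 682 ± 80.0 in floxed cerebellum (SD, n = 7 each). Aurkb, a mitotic kinase that phosphorylates vimentin in dividing cells, rose in each region, by 1.72, 1.77 and 1.59 in cortex, midbrain and cerebellum (limma adjusted p = 0.00477, 0.00403 and 0.0331), at low levels of 53.7 ± 32.9 in cKO and 14.9 ± 5.66 in floxed cortex. Rock2, a kinase of filament proteins and of actomyosin, fell by 0.31 in cortex (limma adjusted p = 0.0104). Dsp, the desmosome gene desmoplakin, fell by 1.00 in midbrain (limma adjusted p = 0.00209). The plakin gene Ppl rose by 1.35 in cerebellum (limma adjusted p = 0.000681), with 203 ± 71.6 in cKO and 76.0 ± 15.1 in floxed libraries, and Ubr1, a ubiquitin ligase, fell by 0.55 there (limma adjusted p = 0.00570).

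Among 20 upstream genes, the cytokines, receptors, kinases and transcription factors known to act on filament genes in reactive astrocytes, 5 were higher and 2 lower in cortex (median -0.01). In midbrain 2 were higher and 1 lower (median -0.07). In cerebellum 6 of 19 tested were higher and 2 lower (median -0.08), beside a median of -0.01 for all genes tested. The shares of all genes called higher and lower were 10.5% and 12.9% in cortex and 8.48% and 7.61% in midbrain. For cerebellum these shares were 19.4% and 19.6%. Whether the upstream genes were called more often than other genes was not tested. Tgfb1 and Osmr were called higher in all 3 regions. Osmr, the receptor of the cytokine oncostatin M, had 290 ± 147 normalised reads in cKO and 91.3 ± 19.4 in floxed cortex, and its log2 folds were 1.56, 0.87 and 1.52 in cortex, midbrain and cerebellum (limma adjusted p = 0.00130, 0.00604 and 0.00648). Tgfb1, the gene of transforming growth factor beta 1, rose by 0.96, 0.66 and 1.16 (limma adjusted p = 0.000870, 0.00179 and 0.00530). Stat3, which encodes the factor whose motif is in the Gfap promoter printed above, rose by 0.39 in cortex (limma adjusted p = 0.0181) and 0.51 in cerebellum (limma adjusted p = 0.00285), and had 0.23 in midbrain (limma adjusted p = 0.0534). Rela, a subunit of NF-kappa B, rose by 0.50 in cerebellum (limma adjusted p = 0.00346), and Cntfr, the receptor of ciliary neurotrophic factor, fell by 0.83 there (limma adjusted p = 0.00369). Jak2, a kinase upstream of STAT3, fell by 0.29 in cortex (limma adjusted p = 0.0140), and Sox9, a transcription factor of astrocytes, fell by 0.31 in midbrain (limma adjusted p = 0.00642).

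Other genes known from reactive astrocytes rose with Gfap in many cases. Of 24 tested in cortex 14 were higher and none lower (median log2 fold 0.80), of 24 in midbrain 7 were higher and 1 lower (0.34), and of 25 in cerebellum 19 were higher and 1 lower (1.36), beside -0.01 for all genes tested in each region. Without floxed cerebellum 6 the cerebellum counts were also 19 and 1. Shares called higher and lower among all genes tested were 10.5% and 12.9% in cortex and 8.48% and 7.61% in midbrain. In cerebellum those shares were 19.4% and 19.6%. Whether this list was called more often than other genes was not tested. Cxcl10, an interferon-induced chemokine, rose by 4.60, 3.92 and 3.84 in cortex, midbrain and cerebellum (limma adjusted p = 0.000338, 0.000103 and 0.00233), with 301 ± 201 in cKO and 10.6 ± 6.37 in floxed cortex. Timp1, an inhibitor of metalloproteinases, rose by 2.51, 1.99 and 2.54 (limma adjusted p = 0.00197, 0.00370 and 0.00259). The interferon-induced GTPase gene Iigp1 rose by 1.54 in midbrain (limma adjusted p = 0.000393). Serpina3n, a protease inhibitor gene, had 3993 ± 1997 in cKO and 340 ± 748 in floxed cerebellum and rose by 5.26 there (limma adjusted p = 0.000522). The floxed cerebellum values of these lists include library 6. Osmr belongs to this list and to the upstream genes. Serping1, the inhibitor of complement C1, rose by 1.05 in cerebellum (limma adjusted p = 0.00114), while the adhesion gene Amigo2, often listed with these genes, fell by 1.05 there (limma adjusted p = 0.000759).

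**Figure D5:**
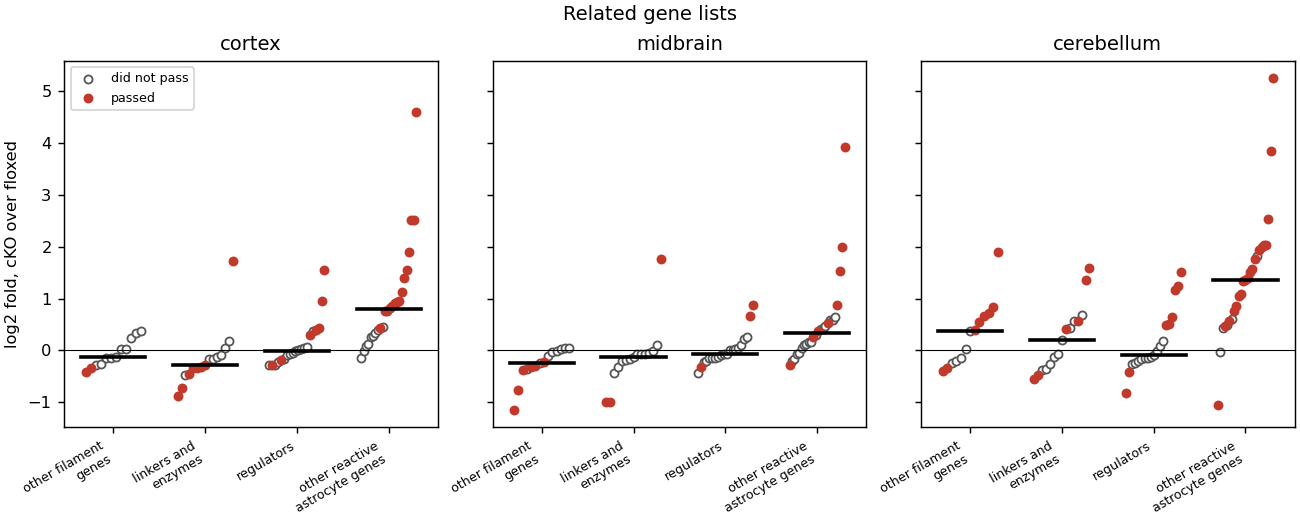
Log2 fold of cKO over floxed tissue (y) for each tested gene of 4 related lists (x), by region, with filled points for limma adjusted p under 0.05, open points for the rest and a line at the median of the list. The list of other reactive astrocyte genes has medians of 0.80, 0.34 and 1.36 in cortex, midbrain and cerebellum, and the list of other filament genes has medians of -0.13 in cortex and -0.23 in midbrain, with genes on both sides of 0.

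In each region some general astrocyte markers went the other way from Gfap, and the others did not pass in the main fits. Of 13 tested, 6 were lower in cKO cortex, 7 in midbrain and 7 in cerebellum and none was higher. The shares of all genes tested that were called lower were 12.9%, 7.61% and 19.6%. The markers had median log2 folds of -0.51, -0.31 and -0.53, beside -0.01 for all genes tested in each region. Their summed level was 162761 to 186509 in cKO and 191582 to 300936 in floxed cortex, 194667 to 231011 in cKO and 208348 to 294005 in floxed midbrain, and 139516 to 191507 in cKO and 162028 to 255121 in floxed cerebellum. Without floxed cerebellum 6 the cerebellum counts were 1 higher and 8 lower. Gfap thus rose where most general astrocyte markers fell or did not pass.

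Some markers of other cell types were also called. Calls higher and lower made up 10.5% and 12.9% of all genes tested in cortex and 8.48% and 7.61% in midbrain. They made up 19.4% and 19.6% in cerebellum. Whether these lists were called more often than other genes was not tested. Of 7 microglia markers 6 were higher and 1 lower in cKO cortex, 5 higher and 1 lower in midbrain and 7 higher in cerebellum. Their summed level was 9106 to 20911 in cKO and 7803 to 11787 in floxed cortex, 7681 to 14419 in cKO and 6597 to 9472 in floxed midbrain, and 8206 to 19540 in cKO and 2506 to 9927 in floxed cerebellum. Of 6 fibroblast and meningeal markers 4 were higher in cortex, 1 in midbrain and 5 in cerebellum, where they summed to 5915 to 12431 in cKO and 2073 to 6268 in floxed libraries. Of 8 endothelial markers none was called in cortex, 7 were lower in midbrain and 1 was lower in cerebellum, with sums of 2951 to 4864 in cKO and 3902 to 6919 in floxed midbrain. Of 6 ependymal markers 1 was higher and 2 lower in cortex, 3 were lower in midbrain and 2 were higher in cerebellum. Of 7 neural stem and progenitor markers 3 were lower in cortex, 2 in midbrain and 4 in cerebellum, where 1 was higher. Of 9 pericyte and smooth muscle markers 3 were lower in cortex, 5 were lower in midbrain and none was called in cerebellum. In cerebellum they summed to 5569 to 14555 in cKO and 5008 to 8023 in floxed libraries. No marker of these lists was at 0 in all libraries. The part of these cells in the values of Vim, Nes, Synm and Gfap was not tested.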

How the data were processed

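Per the labels' protocols, poly(A) RNA of whole tissue, extracted with TRIzol, went into unstranded NEBNext Ultra libraries that were sequenced from both ends. STAR, Salmon, DESeq2 and mm10 are named in the submitters' processing notes, without versions or order. The deposited values are a signal, read counts normalised by a step not given in the sources used here: of 74982 low values, 87.1% lay within 0.1 of a whole multiple of the value of 1 read, so whole reads were not recovered and no count model was used. Date-named entries (26 of 24972, at most 0.351% of a total) were left out. A cKO and a floxed library whose title and tissue label disagree were left out of the comparisons, which hold 39 of 41 libraries.

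Every region had its own fit by limma 3.58.1 (trend and robust settings, R 4.3.3) of log2(value + 1) on genotype and labelled sex. Genes entered it if a value of 10 was reached in as many libraries as the smaller group holds. Calls are Benjamini-Hochberg adjusted p under 0.05 over all genes tested, and folds understate changes of low genes. Region differences come from a fit of all 6 groups. Deviations of same-numbered cKO and floxed libraries had correlations of -0.31 to 0.21, which were not set against pairs of different numbers. The main fits did not pair the genotypes by number. Libraries of 1 animal had a consensus correlation of 0.19. Fits were tested on simulated data. Exact tests used scipy 1.17.1, tables pandas 2.3.3 with numpy 2.4.6 in Python 3.11.15, and plots matplotlib 3.10.9. TMM factors were computed from their formula.

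The members, lists and tests were chosen with earlier results of these data known. Named genes are the 4 members, Yy1, up to 3 genes per list and region with the lowest p, the 6 genes most like Gfap (of which 1 is not reported here) and the 3 most like each other member, by correlation over cKO libraries among genes tested in every region with a mean of 100 or more. Promoter sequences are from RefSeq on GRCm38.p6, in which all 4 symbols matched.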

Additional observations from a re-analysis of the deposited data

Results flagged for a closer look

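Of 24 groups examined for a library far from the others, 4 held one, where chance gives about 1 in 20. Gfap in floxed cerebellum 6 was 25729 normalised reads, and Nes in the same library was 729.2, both far above the other floxed cerebellum libraries. Synm in that library was 412.6, far below the others. Synm in floxed cortex 2 was 1546, above the other floxed cortex libraries.

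The cKO effect differed between regions by the limma contrast for Vim in cerebellum minus cortex (-1.23), Synm in cerebellum minus cortex (0.56), Nes in cerebellum minus midbrain (0.79) and Synm in cerebellum minus midbrain (0.57).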

How the results depend on the processing

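Each comparison was repeated under other pseudocounts, filters, scalings, covariates, weights and blocks, without animals 5, 6 and 7, and with each library left out, 1 choice at a time. Leaving out animal 6 of both genotypes, and the fit of all 6 groups without floxed cerebellum 6, were chosen after seeing the data. Gfap and Nes in cerebellum, Gfap in midbrain, Nes and Synm in cerebellum minus midbrain, and Vim and Synm of floxed cerebellum against both other regions passed under every alternative. Causes of the changes below were not tested. The lowest median estimated depth was that of cKO cerebellum (16.3 M reads), and how far depth limits precision was not compared between groups.

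In cortex, the replicate block gave 2.27 for Gfap (limma adjusted p = 0.0692), -0.26 for Synm (0.0763) and 1164 called genes. Other counts were 2040 without a sex covariate, 1623 with Xist in its place and 2302 in 1 fit of all 6 groups. Synm was -0.26 in that fit, also without floxed cerebellum 6, Vim was 1.42 without a sex covariate, and Nes was 0.38 without animals 5, 6 and 7. In midbrain, Synm did not pass without animals 5, 6 and 7 (-0.34), with depth as a covariate (-0.26), with the replicate block (-0.27, limma adjusted p = 0.0520) or in 1 fit (-0.27, the same without floxed cerebellum 6). Vim was 0.88 without a sex covariate and 0.87 with depth as a covariate. Genes called were 721 with depth, 961 in 1 fit and 1270 in 1 fit without floxed cerebellum 6, which called 9069 in cerebellum. Synm in cerebellum passed in 1 fit (0.30). The sign turned for Slc39a8 in cortex without animals 5, 6 and 7 (-0.07), Clec2d in midbrain with library weights (-0.02), and in cerebellum Ehbp1l1 (-0.11 with weights, -0.04 with depth) and Tinagl1 (-0.15 and -0.13). Whether same-numbered cKO and floxed animals share a litter or a batch was not tested, so the calls lost under the replicate block are given without a reading.

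For cerebellum minus cortex, 3745 genes were called with weights. Vim was -1.18 without a sex covariate and -1.12 with weights. Nes passed with weights (0.63), without animals 5, 6 and 7 (0.76) and without animal 6 of both genotypes (0.70). Synm did not pass without a filter (0.56), with Xist (0.55), with weights (0.29) or without animals 5, 6 and 7 (0.68). For cerebellum minus midbrain, Gfap passed with Xist (1.30), weights (1.47), without animals 5, 6 and 7 (1.5), without animal 6 of both genotypes (1.69) and with the animal as a random replicate block (1.31). For midbrain minus cortex, genes called were 2 with a pseudocount of 10 or the animal as a block, 63 with weights and 10 without animal 6 of both genotypes, and Synm was 0.01 under TMM and with weights.

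For floxed cerebellum against cortex, Nes was 0.16 scaled to the same total, 0.08 with TMM and 0.03 with median-of-ratios scaling, and passed with weights (-0.30) and without animals 5, 6 and 7 (-0.48). Scaling to the same total moved called genes that were higher to 60.0%, against 35.8% as deposited. For floxed cerebellum against midbrain, Gfap passed with a filter of 50 (-0.79), Xist (-0.77), weights (-1.09), without animals 5, 6 and 7 (-1.15), without animal 6 (-1.14) and with the animal as a replicate block (-0.79), and Nes was -0.13 with weights, -0.32 without animals 5, 6 and 7 and -0.16 without animal 6. For floxed midbrain against cortex, 7739 genes were called with weights, and Synm passed scaled to the same total (0.41), with TMM (0.37), median-of-ratios (0.36), weights (0.28) and the animal block (0.30). The spread of Gfap passed in cortex on untransformed values (a difference of 11500.38 normalised reads, exact permutation p = 0.0152) and in cerebellum without animals 5, 6 and 7 (0.53, exact permutation p = 0.0286). The same animals left out gave 0.05 in cortex (exact permutation p = 0.714) and 0.14 in midbrain (exact permutation p = 0.0286). Without them 0.0286 is the smallest exact permutation p possible in midbrain and cerebellum.

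Leaving out each library in turn gave, for the spread of Gfap, 0.25 to 0.80 in cortex and -0.02 to 0.44 in cerebellum, and for r between midbrain and cerebellum Gfap -0.11 to 0.73 in cKO and 0.20 to 0.88 in floxed animals. In midbrain it gave 0.20 to 0.33 for Nes, -0.31 to -0.23 for Synm, -0.01 to 0.14 for Clec2d and -0.02 to 0.06 for Cnn3. For cerebellum minus cortex it gave -0.09 to 0.69 for Gfap, -1.53 to -1.0 for Vim, 0.41 to 0.65 for Nes and 0.44 to 0.64 for Synm, for cerebellum minus midbrain 1.18 to 1.73 for Gfap, and for midbrain minus cortex 1 to 3 called genes and -0.05 to 0.03 for Synm. For floxed cerebellum against midbrain the ranges were -1.21 to -0.69 for Gfap and -0.16 to 0.09 for Nes, and for floxed midbrain against cortex 0.27 to 0.34 for Synm.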

Other observations

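A cKO and a floxed library have a cortex code in the title and midbrain as the tissue label, so they belong to no group. The cKO library had 18225 normalised reads of Gfap, 1647 of Vim, 674.4 of Nes, 1283 of Synm and 1063 of Yy1. The floxed library had 2735 of Gfap, 795.7 of Vim, 467.6 of Nes, 1396 of Synm and 1191 of Yy1.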
